A study of Mus musculus with 4 samples.

Results

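Mitochondrial ribosomal protein genes encode the proteins of the ribosome inside mitochondria, and 77 of the 53465 gene rows measured here belong to this group. They were found by mapping each Ensembl identifier to its symbol in the mouse GENCODE annotation (GRCm38) and keeping protein-coding symbols that begin with Mrpl or Mrps followed by a number. A sum of at least 10 counts over the libraries was also required. Of 78 matching rows, 48 Mrpl genes (named for the large subunit) and 29 Mrps genes (named for the small subunit) met the rule. The row nearest below the threshold, Mrpl53, had 0 counts in each library, and the member nearest above it, Mrps18c, had 439 in all.

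The RNA came from lateral habenula tissue of C57BL/6 mice that were either group-housed or socially isolated, with 2 poly(A) libraries for each group. No transgene or drug is named in the labels, and age, sex and length of isolation are not stated in the sources used here. Whether a library holds 1 animal or a pool is not stated either. The p-values therefore measure only how far these samples differ, and that spread may be technical. The libraries held 20897605 to 26428152 counts. All 10 lateral habenula markers of a fixed list were present, for example Gpr151 at 352 to 426 CPM (edgeR's depth-scaled count unit, here with TMM library sizes), and so were markers of the medial habenula and thalamus next to it.

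Mitochondria carry their own small genome, whose messages encode core subunits of the respiratory chain and of ATP synthase. A dedicated ribosome translates them. Its ribosomal RNAs come from the mitochondrial genome, whereas its proteins are all encoded in the nucleus, made in the cytosol and imported. Many of these genes are driven by promoters with sites for nuclear respiratory factor 1 (NRF1) and the ETS family factor GABPA, and neurons depend on the chain that this ribosome helps to build. Human mutations in several of the genes, among them MRPS16, MRPS22, MRPS34, MRPL3 and MRPL44, cause mitochondrial disease.

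Promoter stretches are shown first because some members hold motifs there that the naming rule did not use. RefSeq promoter windows (GRCm38.p6, 250 bases before to 50 after a start) were matched by symbol for 68 of the 77 genes. In these 3 stretches of 100 bases upstream of a start, written 5′ to 3′ on the gene's strand, capitals mark the motif found. For each subunit and each of 3 motifs, the gene shown was the one with the highest level per kilobase among genes with a single window and a match in the stretch. Stretches with over 30 exonic bases were passed over, and not every motif had a gene left. The first lies at chr3:94443236-94443335 (plus strand), the next at chr19:45006443-45006542 (minus strand) and the last at chr13:99344686-99344785 (plus strand).
Mrpl9: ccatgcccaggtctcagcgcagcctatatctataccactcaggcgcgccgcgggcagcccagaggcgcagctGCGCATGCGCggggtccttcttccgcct
Mrpl43: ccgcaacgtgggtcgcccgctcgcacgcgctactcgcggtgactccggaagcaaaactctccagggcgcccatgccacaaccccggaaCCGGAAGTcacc
Mrps27: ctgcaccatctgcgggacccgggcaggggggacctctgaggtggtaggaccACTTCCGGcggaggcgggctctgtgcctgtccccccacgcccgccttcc

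In Mrpl9 the capitals are 2 overlapping matches of the NRF1 half-palindrome, at 28 to 21 and 26 to 19 bases upstream of the start. In Mrpl43 they are the ETS motif at 12 to 5 bases upstream, and in Mrps27 the ETS motif on the other strand at 49 to 42 bases upstream. Ptcd2, a gene for a pentatricopeptide repeat protein that faces away from Mrps27, starts 81 bases upstream of it, so this match lies between the starts of both genes. Each motif was searched on both strands. The NRF1 half-palindrome GCATGCGC was in the windows of 8 members (11.8%), against 5.56% of the 11484 tested protein-coding genes with a window. The ETS motif CCGGAAGT was in 12 (17.6%) against 8.10%, and the YY1 motif AAGATGGC was in 12 (17.6%) against 4.68%. At least 1 of these 3 was in the windows of 29 members (42.6%) against 17.0%. The general GC box GGGCGG, a motif of Sp1 sites, was in 34 members (50%) against 66.8%, so it was not more frequent among them.

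The NRF1 letters were in 7 of 42 large-subunit and 1 of 26 small-subunit genes with a window, a difference that was not tested. Of the 12 YY1 matches in genes with a single window, 8 lay after the start and 4 before it, whereas 13 of 14 NRF1 and 9 of 11 ETS matches lay before it. These counts describe letters in a window and do not show binding. The 29 genes with 1 of the 3 motifs had a median log2 fold change, isolated against group-housed, of -0.0021, and the 39 without had 0.00081. Both medians were close to 0.

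The members also stand close to other genes. A protein-coding gene on the other strand started within 1000 bases upstream of 18 members (23.4%), against 8.85% of all 15849 protein-coding genes with at least 10 counts. Mrps12, which contributes to the decoding centre, starts 172 bases from Sars2, the mitochondrial seryl-tRNA synthetase, and the pair is transcribed in opposite directions, away from each other. Fau, which encodes a ubiquitin-like fusion with a cytosolic ribosomal protein, starts 59 bases from Mrpl49. The large-subunit gene Mrpl46 and the small-subunit gene Mrps11 overlap on opposite strands of chromosome 7. In all, the exons of 32 members (41.6%) overlap those of another annotated gene, against 35.1% of the same background. Whether counting used strand is not stated in the sources used here, so the counts of those 32 are uncertain to that extent. Mrpl53 (chr6:83109040-83109939, plus strand), which had 0 counts, overlaps Gm42688 on its own strand, with 40 to 55 counts per library, and the antisense gene Ccdc142os, with 31 to 54.

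No difference in any mitochondrial ribosomal protein gene between group-housed and isolated mice passed the test. In edgeR's quasi-likelihood test over 17528 genes, 0 of 77 members passed at a Benjamini-Hochberg adjusted p of 0.05, where 2 genes (0.0114%) passed in all. The smallest adjusted p of a member was 0.979. At an unadjusted p under 0.05, 0 members were higher and 0 lower, beside 2.83% of all genes higher and 2.26% lower. DESeq2, limma-voom and edgeR's exact test also called 0 members. Of all genes tested 51.2% had a log2 fold change above 0 and 48.8% below. In the large subunit 24 genes were above 0 and 24 below, with log2 fold changes from -0.12 to 0.20 and a median of -0.00089. In the small subunit 17 were above 0 and 12 below, from -0.14 to 0.18 with a median of 0.03. The median over all genes tested was 0.0033.

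**Figure D1:**
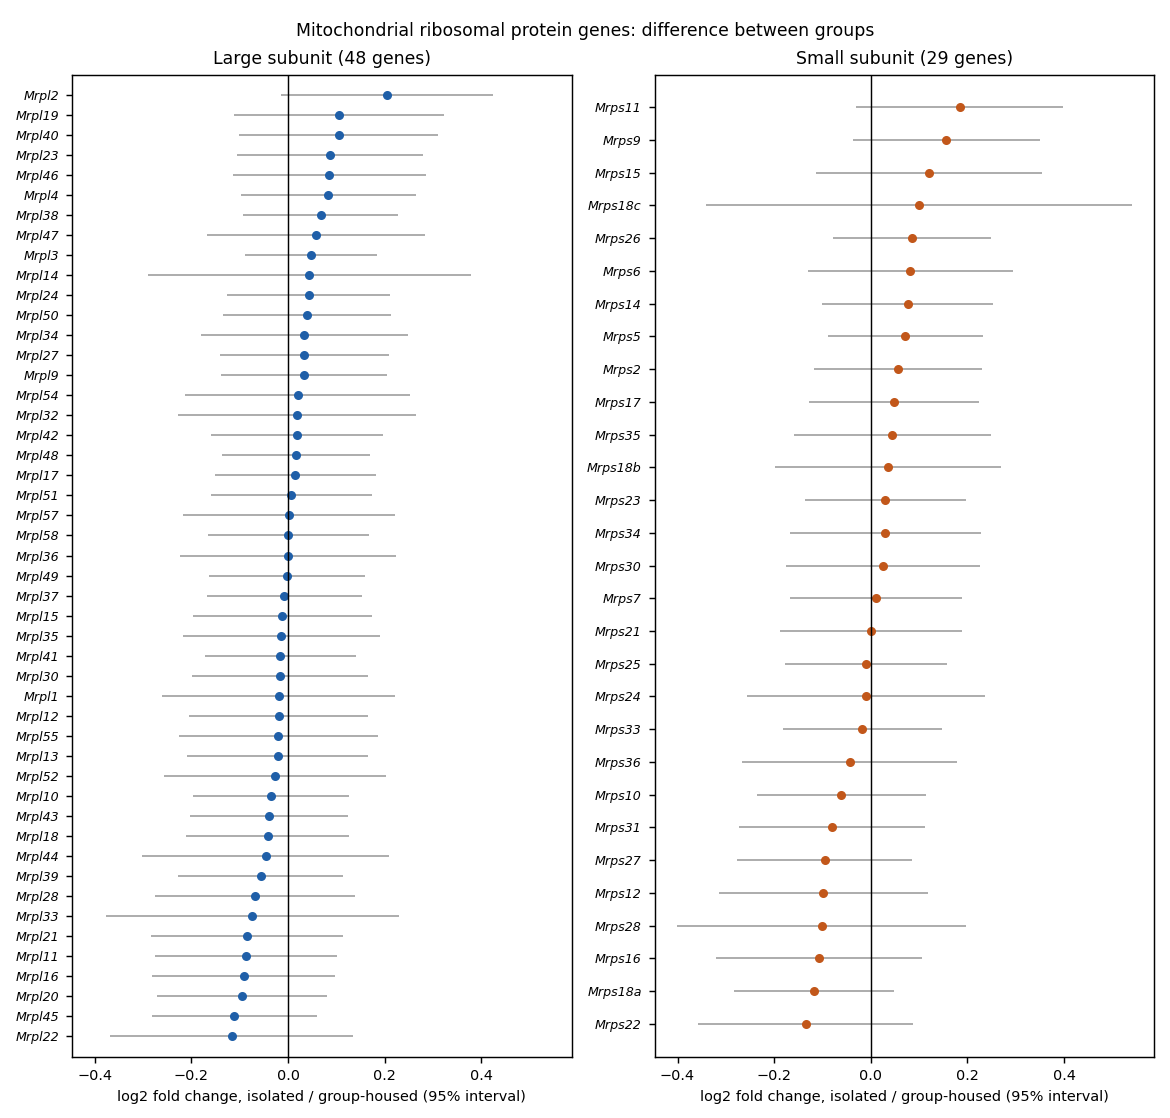
Log2 fold change of each mitochondrial ribosomal protein gene (isolated against group-housed), with its 95% interval, for the 48 large-subunit genes (left) and the 29 small-subunit genes (right). Points are fitted values from 2 libraries per group, and all 77 intervals include 0.

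Missing a threshold does not by itself show sameness, so the intervals matter. The 95% intervals (not adjusted for the number of genes) held 0 for 77 of 77 members. For 62 members the interval lay wholly within 0.3 of 0 on the log2 scale, and for 76 within 0.5. The exception was Mrps18c (-0.34 to 0.54), which has the fewest counts. The median half-width was 0.19.

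Among large-subunit genes of the catalytic core and its surroundings, Mrpl2 had the highest log2 fold change. Mrpl2 (chr17:46646229-46650139, plus strand), which lies near the peptidyl transferase centre, measured 22.4 and 24.8 CPM in group-housed and 25.7 and 28.9 CPM in isolated libraries. Both isolated libraries were above both group-housed ones, yet by an amount within the fit's error (23.6 ± 1.70 against 27.3 ± 2.25 CPM, SD, n = 2; log2 fold change 0.20, SE 0.10, edgeR adjusted p = 0.979). Mrpl3, another core protein and the most abundant member in CPM, measured 74.8 and 76.6 CPM against 78.3 and 78.2 CPM, a log2 fold change of 0.05. Mrpl16, whose bacterial counterpart helps to place tRNA, measured 23.3 and 22.8 CPM in group-housed and 21.6 and 21.7 CPM in isolated libraries, a log2 fold change of -0.09. Mrpl27, a further protein close to the catalytic centre, gave 30.3, 29.4, 31.0 and 30.02 CPM in the same order of libraries, so its groups overlapped.

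In the stalk, which recruits the translation factors, no gene had groups that stood apart. Mrpl12, the stalk protein that has also been linked to the mitochondrial RNA polymerase, measured 49.5 and 46.8 CPM in group-housed and 50.3 and 44.6 CPM in isolated libraries. Mrpl10, on which it sits, measured 50.4, 54.7, 51.8 and 50.8 CPM. Mrpl11 at the stalk's base measured 36.7 and 35.9 against 36.1 and 32.3 CPM. The groups overlapped for Mrpl12, Mrpl10 and Mrpl11, with log2 fold changes of -0.02, -0.04 and -0.09.

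Around the exit tunnel the values went both ways. Mrpl45, which ties the ribosome to the inner membrane, measured 35.1 and 34.4 CPM in group-housed and 32.8 and 31.6 CPM in isolated libraries (34.8 ± 0.470 against 32.2 ± 0.863 CPM, SD, n = 2). Its log2 fold change was -0.11 (SE 0.07, edgeR adjusted p = 0.995), the smallest p among the large-subunit genes that were lower. Mrpl23 at the tunnel's rim measured 24.6 and 22.8 against 25.2 and 25.2 CPM (0.09), and Mrpl4, whose loop lines the tunnel, 45.3 and 40.6 against 46.6 and 44.3 CPM (0.08). Only for Mrpl4 of these 3 did the groups overlap.

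Other large-subunit genes lay within the same range. Mrpl20, related to a bacterial assembly protein, measured 40.8 and 37.4 CPM in group-housed and 36.7 and 36.4 CPM in isolated libraries (-0.10). Mrpl40 measured 19.1 and 18.2 against 20.1 and 19.9 CPM (0.11), and Mrpl19 29.5 and 28.1 against 33.4 and 28.6 CPM (0.11), where isolated replicate 1 alone stood apart. Mrpl44, which has an RNase III-like fold, measured 24.3, 19.6, 21.5 and 20.9 CPM, and its spread within the group-housed pair exceeded the difference between groups. Mrpl13 measured 26.2, 27.7, 25.9 and 27.3 CPM. Mrpl41, Mrpl15 and Mrpl33 had log2 fold changes of -0.02, -0.01 and -0.07.

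In the small subunit, the highest log2 fold changes were those of Mrps11, of the platform, and Mrps9, of the head. Mrps11 (chr7:78783119-78792989, plus strand) measured 17.5 and 17.9 CPM in group-housed and 20.9 and 19.3 CPM in isolated libraries (17.7 ± 0.253 against 20.1 ± 1.11 CPM, SD, n = 2). Its log2 fold change was 0.18 (SE 0.09, edgeR adjusted p = 0.979), and its overlapping neighbour Mrpl46 had 0.09. Mrps9 (chr1:42851233-42905683, plus strand), whose tail reaches the tRNA in bacteria, measured 32.4 and 35.1 against 35.7 and 39.6 CPM (log2 fold change 0.16, SE 0.08, edgeR adjusted p = 0.979). Both isolated libraries were above both group-housed ones for these 2 genes. Mrps7, also of the head, measured 46.0, 41.4, 44.6 and 43.4 CPM, and its groups overlapped (0.01). Mrps10 measured 33.5 and 32.7 against 30.8 and 32.6 CPM (-0.06).

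At the decoding centre and along the messenger path the groups overlapped. Mrps12, the counterpart of the bacterial protein altered in streptomycin resistance, measured 32.1 and 28.8 CPM in group-housed and 30.2 and 26.6 CPM in isolated libraries (-0.10). Mrps5, at the entry of the messenger channel, measured 67.9 and 68.2 against 75.2 and 67.8 CPM (0.07), and its higher mean came from isolated replicate 1. Mrps2 measured 34.7, 32.4, 35.1 and 34.6 CPM (0.06).

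Genes of the small subunit's body and shell included the lowest values. Mrps22 (chr9:98588730-98601660, minus strand), a mitochondria-specific protein, measured 18.5 and 17.9 CPM in group-housed and 16.0 and 17.1 CPM in isolated libraries (log2 fold change -0.14, SE 0.10, edgeR adjusted p = 0.999). Mrps16 measured 22.4 and 20.2 against 19.6 and 19.9 CPM (-0.11), and Mrps27, a pentatricopeptide repeat protein, 27.4 and 28.7 against 26.6 and 26.1 CPM (-0.09). Isolated libraries were lower than group-housed ones for each of these 3, without passing the test. Mrps15, of the body, measured 26.7, 31.8, 30.2 and 33.5 CPM (0.12), and Mrps34 29.9, 34.0, 33.0 and 32.4 CPM (0.03). Mrps26 measured 38.4 and 38.7 against 41.8 and 40.0 CPM (0.09), with no overlap. Mrps21, Mrps33 and Mrps35 had log2 fold changes of 0.00036, -0.02 and 0.04.

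Some Mrps names do not match the place of the protein in known structures. Mrps18a, Mrps18b and Mrps18c are related to 1 bacterial protein, S18, and Mrps18a and Mrps30 are found in the large subunit. Mrps36 is now regarded as a component of the 2-oxoglutarate dehydrogenase complex. Mrps18a measured 40.7 and 41.7 CPM in group-housed and 38.9 and 37.0 CPM in isolated libraries (log2 fold change -0.12, SE 0.07, edgeR adjusted p = 0.985), with both isolated libraries below both group-housed ones. Mrps18b measured 16.9, 19.5, 18.8 and 18.6 CPM, and Mrps18c 3.997, 4.51, 4.08 and 5.06 CPM, so only Mrps18a of the 3 paralogs had groups that did not overlap. Mrps30 measured 21.3, 22.6, 23.0 and 21.7 CPM and Mrps36 21.3, 19.5, 18.9 and 20.6 CPM. With Mrps18a and Mrps30 counted in the large subunit and Mrps36 left out, the medians were -0.00089 for the large and 0.03 for the small subunit.

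For 10 of 77 members the lower isolated library exceeded the higher group-housed one, where this held for 17.4% of all genes. For 15 the reverse held, where this held for 16.3% of all genes. By subunit it was 6 above and 8 below of 48, and 4 above and 7 below of 29. These shares are near the background of all genes, so the count of members without overlap is not a result about them.

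**Figure D2:**
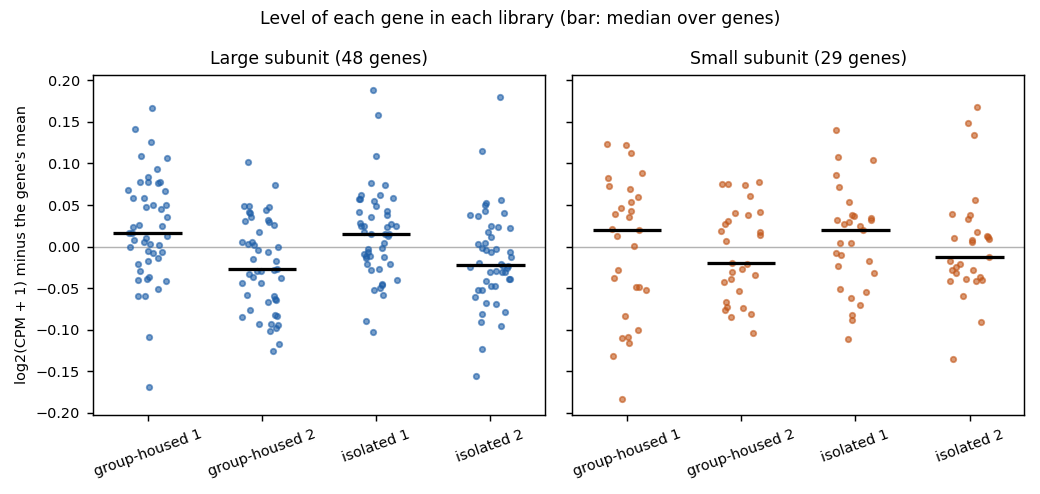
Level of each gene in each library, as log2(CPM + 1) minus the gene's mean over the 4 libraries, for the large (left) and small (right) subunit. Points are genes and bars are medians, which lie between -0.03 and 0.02 in all 4 libraries.

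Relative to each gene's mean on the log2(CPM + 1) scale, the large-subunit median was 0.02 and -0.03 for group housing and 0.02 and -0.02 for isolation. For the small subunit it was 0.02 and -0.02 for group housing and 0.02 and -0.01 for isolation. In both groups the median of replicate 1 was above that of replicate 2. Summed over the genes, the large subunit took 1554 and 1506 CPM in group-housed and 1548 and 1515 CPM in isolated libraries, and the small subunit 857, 852, 871 and 856 CPM. All members together took 0.236 to 0.242% of a library's counts.

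By median absolute log2 fold change, large-subunit genes differed less between groups than tested genes within the members' range of mean CPM. Small-subunit genes did not. This median was 0.037 for the large subunit, 0.071 for the small and 0.044 over the 77 members. Over the 8862 tested genes whose mean CPM fell within the members' range (4.41 to 77.0 CPM) it was 0.067. Within that range the sets were not matched in abundance. The median of the mean CPM was 33.0 for the large subunit, 29.4 for the small and 24.9 for the 8862 genes. The median SE was 0.082, 0.085 and 0.095 in that order. All 77 members lay within 0.25 of 0, as did 83.6% of all genes tested and 93.6% of those 8862. The coefficient of variation between the libraries of a group had a median of 3.99% (group-housed) and 2.72% (isolated) for the large subunit, and of 4.57% and 3.25% for the small. The median counts behind them were 816 and 724 per library. For the 8862 genes the medians were 4.59% and 5.02%, at a lower median count of 616. This is a description of 2 libraries per group, and genes are not replicates of a condition.

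**Figure D3:**
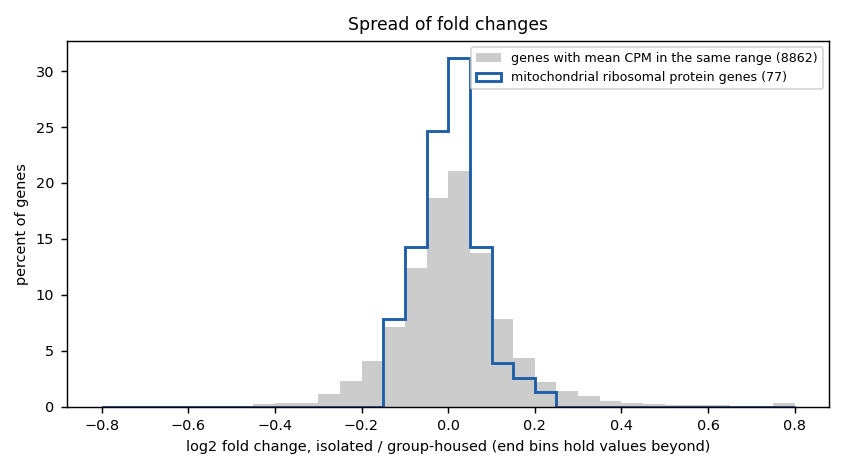
Percent of genes by log2 fold change (isolated against group-housed), in bins of equal width, for the 77 mitochondrial ribosomal protein genes (line) and the 8862 tested genes with a mean CPM in the same range (grey). The line stays between -0.14 and 0.20, while the grey bars reach further on both sides.

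The genes differed far more from each other than between groups. Levels between genes were compared per kilobase of all annotated exons joined, as the mean CPM per kilobase of the 4 libraries. The median was 12.9 for the large subunit (1.26 to 47.8) and 10.6 for the small (2.54 to 38.4). The highest large-subunit genes were Mrpl41 (47.8), Mrpl12 (31.2) and Mrpl27 (30.6), and the highest small-subunit genes Mrps21 (38.4), Mrps12 (28.3) and Mrps33 (26.9). The lowest were Mrpl33 (1.26), Mrpl15 (3.30) and Mrpl13 (3.38), and Mrps35 (2.54), Mrps30 (3.32) and Mrps10 (4.01).

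The length used decides part of this order, because long rare isoforms enlarge the joined exons. Per kilobase of the principal transcript, an alternative chosen after seeing the data and available for 70 genes, the medians were 19.8 and 17.4. Mrpl33 then measured 19.4 and Mrpl13 21.9, so their low places were lost, whereas Mrpl15 (6.66), Mrps35 (5.26) and Mrps30 (6.67) stayed low. Mrpl41 (54.7) and Mrps21 (63.5) were high on both lengths.

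**Figure D4:**
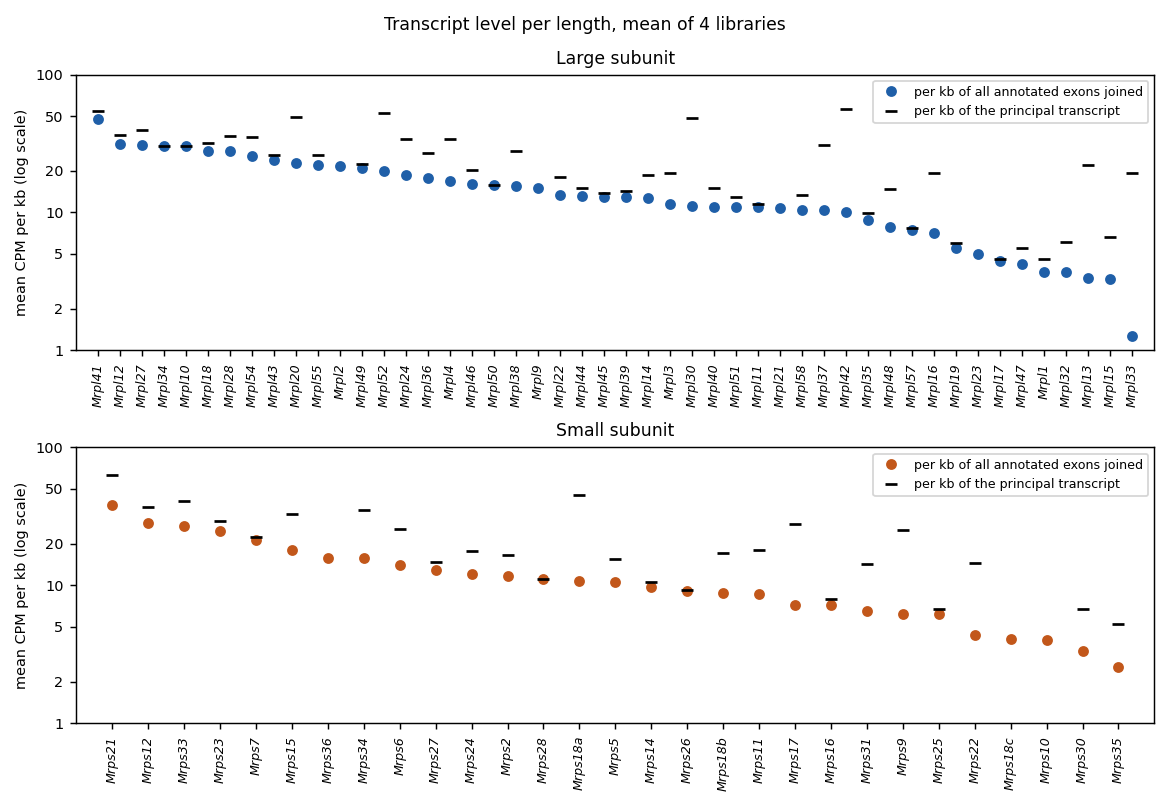
Mean CPM per kilobase (log scale) of each gene over the 4 libraries, ordered by the level per kilobase of all exons joined (circles), with the level per kilobase of the principal transcript where 1 is annotated (dashes). Mrpl41 and Mrps21 lead their subunits by circles, and Mrpl33 has the largest gap between the marks.

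In the rest of the mitochondrial translation machinery, taken from lists, no gene passed edgeR's test. Of 6 mitoribosome proteins with other names (Dap3, Ptcd3, Chchd1, Aurkaip1, Gadd45gip1 and the insertase Oxa1l that binds the ribosome), 0 passed, with a median log2 fold change of 0.0067. Dap3, a GTP-binding protein of the small subunit and the most abundant of them, measured 59.9, 59.5, 57.4 and 61.1 CPM in group-housed replicates 1 and 2 and isolated replicates 1 and 2. Oxa1l had the smallest p of those above 0 (0.04) and Chchd1 of those below (-0.12). Of 28 assembly factors 0 passed (14 higher, 14 lower, median 0.0050). Mterf3, a regulator of ribosome assembly, measured 27.1 and 23.8 CPM against 28.1 and 29.2 CPM (0.17, edgeR adjusted p = 0.979), and Mtg2, a GTPase of the large subunit, 17.1 and 16.7 against 15.2 and 15.3 CPM (-0.15, edgeR adjusted p = 0.995). Dhx30, an RNA helicase and the most abundant of them, measured 115, 110, 111 and 114 CPM.

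Of 15 translation factors 0 passed (9 higher, 6 lower, median 0.02). The release factor gene Mtrf1 measured 6.53 and 6.19 CPM in group-housed and 7.43 and 7.14 CPM in isolated libraries (0.20), and Mrrf, the recycling factor, 25.0, 22.9, 24.8 and 20.2 CPM (-0.09). Lrpprc, which stabilises mitochondrial messages, was the most abundant at 90.8, 96.6, 96.8 and 96.6 CPM. Of 20 genes of tRNA charging 0 passed (13 higher, 7 lower, median 0.03). Nars2 measured 15.8 and 14.3 against 12.1 and 14.0 CPM (-0.20), Iars2 70.0 and 71.1 against 73.3 and 77.4 CPM (0.09), and Lars2, the most abundant, 119, 130, 96.1 and 132 CPM.

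Of 18 genes of mitochondrial transcription, genome copying and nuclear control 0 passed (9 higher, 9 lower, median -4.77e-06). Nrf1, Gabpa and Yy1, whose motifs were searched above, did not pass the test, with Nrf1 at 20.8, 20.4, 20.2 and 20.9 CPM, Gabpa at 38.5, 34.2, 38.0 and 33.9 CPM and Yy1 at 74.1, 70.9, 74.8 and 78.1 CPM. The coactivator gene Ppargc1b had the smallest p, at 13.3 and 14.0 CPM in group-housed and 17.7 and 17.6 CPM in isolated libraries (log2 fold change 0.37, SE 0.10, edgeR adjusted p = 0.663). Mterf1a measured 4.39 and 3.97 against 3.28 and 2.91 CPM (-0.43, edgeR adjusted p = 0.979), and Ppargc1a, the most abundant, 85.4, 78.9, 81.2 and 72.9 CPM (-0.09).

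The RNAs that this ribosome reads or contains had lower means in the isolated libraries, without passing the test. Of 12 tested mitochondrially encoded mRNAs, 12 had a lower mean in the isolated libraries (median log2 fold change -0.22, from -0.49 to -0.04). Of these 0 passed, with 2 lower at an unadjusted p under 0.05. Means were low for mt-Nd3 (0.89 CPM), mt-Co3 (0.91 CPM, the -0.04), mt-Co2 (0.97 CPM) and mt-Atp6 (2.47 CPM), beside 4578 CPM for mt-Co1. Whether such low values reflect the amount of these messages was not tested, so they should not be read as message levels. At a 5 CPM minimum, applied to this list after seeing the data, 8 were left and 8 were lower (median -0.20). The summed level of the 12 was 17897 and 15618 CPM in group-housed and 14341 and 14804 CPM in isolated libraries, so group-housed replicate 1 stood highest. Leaving libraries out of these comparison lists was an alternative chosen after seeing the data. The median was -0.13 without group-housed replicate 1, with 11 of 12 lower, and -0.34 without group-housed replicate 2. In the fit without isolated replicate 1, and in that with the replicate number as a block, 1 of the 12 was called. The most abundant, mt-Co1, measured 5197 and 4548 against 4212 and 4355 CPM (-0.19, edgeR adjusted p = 0.978), and mt-Nd6 had the smallest p at 48.7 and 40.9 against 36.5 and 27.3 CPM (-0.49, edgeR adjusted p = 0.705). The ribosomal RNAs mt-Rnr1 (1389, 1092, 1014 and 999 CPM) and mt-Rnr2 (2297, 1760, 1678 and 1620 CPM) had log2 fold changes of -0.30 each, with edgeR adjusted p-values of 0.886 and 0.957. Group-housed replicate 1 stood highest here too. Without it the log2 fold changes were -0.12 and -0.09, and without group-housed replicate 2 they were -0.47 and -0.49. Ribosomal RNA that a poly(A) library retains need not reflect its amount in the tissue. The difference between these RNAs and the ribosomal protein genes was not tested.

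For comparison, 79 of 81 cytosolic ribosomal protein genes had a lower mean (median log2 fold change -0.10), as did 67 of 81 genes of nuclear-encoded oxidative phosphorylation (median -0.05), and 0 of either passed the test, with 4 and 1 lower at an unadjusted p under 0.05. Relative to each gene's mean on the log2(CPM + 1) scale, the cytosolic medians were 0.11 and -0.01 in group-housed and -0.07 and -0.02 in isolated libraries. The oxidative phosphorylation medians were 0.06, -0.02, -0.02 and -0.02 in that order, so group-housed replicate 1 stood apart from the other libraries. Without it the cytosolic median log2 fold change was -0.04 (69 of 81 lower) and that of oxidative phosphorylation -0.0049 (47 of 81 lower). Without group-housed replicate 2 they were -0.17 and -0.10. Of the mitochondrial ribosomal protein genes 36 of 77 were lower (46.8%), beside 48.8% of all genes tested. That count ran from 26 with plain library totals to 46 without group-housed replicate 2.

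**Figure D5:**
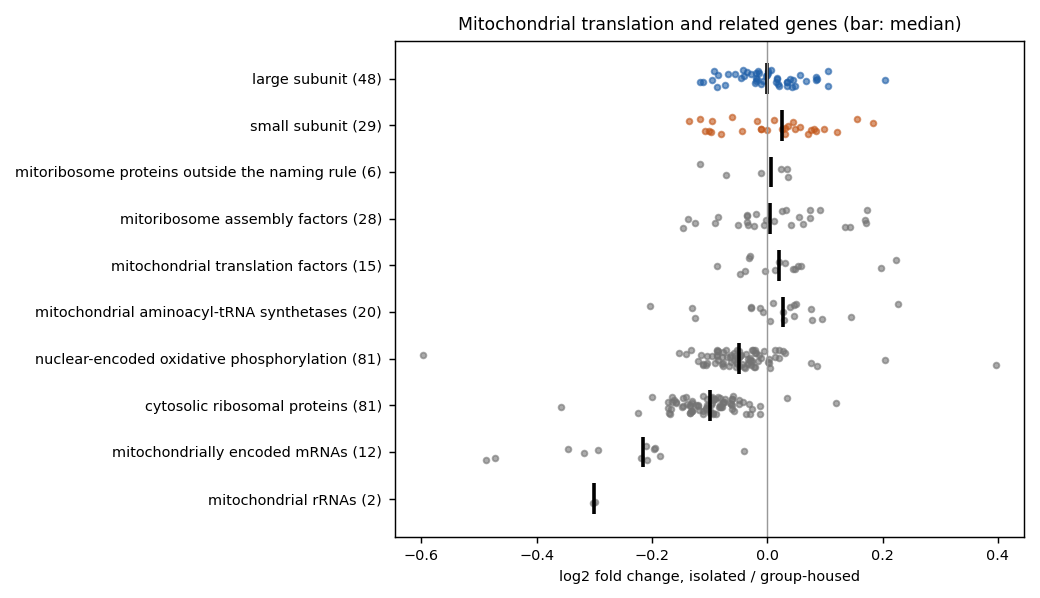
Log2 fold change (isolated against group-housed) of each gene of mitochondrial translation and of related lists, with the number of genes in brackets; points are genes and bars are list medians. The subunits' medians are -0.00089 and 0.03, and those of the mitochondrially encoded mRNAs and ribosomal RNAs are -0.22 and -0.30.

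Markers of neighbouring and other cell types had unequal levels in the libraries. Of 12 medial habenula markers 10 had higher means (summed level 1790 to 1886 CPM in group-housed and 2199 to 2205 in isolated libraries), and of 12 thalamus markers 11 had lower ones (1466 to 1561 against 1260 to 1448). All 10 oligodendrocyte (12553 to 13498 against 10251 to 12040), all 10 microglia (389 to 428 against 368 to 373) and 9 of 10 astrocyte markers (6015 to 6514 against 5763 to 5819) had lower means. All 10 ependymal markers had higher means (76.6 to 79.7 against 83.7 to 166). Most of the ependymal difference came from isolated replicate 2 (166 CPM), with isolated replicate 1 at 83.7 CPM. Thalamus markers were lowest in isolated replicate 2 (1260 CPM), with isolated replicate 1 (1448 CPM) near the lower group-housed library (1466 CPM). Oligodendrocyte markers were lowest in isolated replicate 1 (10251 CPM), with isolated replicate 2 (12040 CPM) nearer the group-housed libraries. Of all these markers, 2 of the medial habenula passed the test. Lateral habenula markers summed to 2019 to 2110 against 2055 to 2233 CPM (6 of 10 higher), and neuronal markers to 5121 to 5393 against 4867 to 5317 (8 of 10 lower). Choroid plexus markers summed to 483 to 587 against 414 to 442 (7 of 9 tested lower). Most of that level was Enpp2, with a mean of 403 CPM over all libraries and a log2 fold change of -0.28. The sum therefore mainly follows this gene and says little about the other choroid plexus markers. No defining marker of these cell types was at 0. In tissue RNA fewer cells of a type and less RNA per cell cannot be told apart, and what these markers contribute to the levels of the mitochondrial ribosomal protein genes was not tested.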

How the data were processed

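All values here were computed from the raw counts that the authors deposited, 1 row per Ensembl gene and 1 column per library. The deposited normalised values were not used. Per the labels' protocols, Trizol extraction was followed by a stranded Illumina TruSeq mRNA library kit. TopHat2 2.1.1, HTSeq, CASAVA and edgeR, with the build GRCm38, are listed without roles in the submitters' processing notes. The annotation release and strand setting are not stated in the sources used here.

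GENCODE vM21 gave symbols for 53360 of 53465 rows. Genes passing edgeR's default low-count filter (17528, all 77 members among them) were fitted with edgeR 4.0.16 in R 4.3.3 (TMM, quasi-likelihood test, 2-sided, no covariate), with Benjamini-Hochberg adjustment over all of them at 0.05. The biological coefficient of variation was 7.20%, with 2 residual and 6.55 prior degrees of freedom. SE is the log2 fold change over the square root of F, and 95% intervals use the t distribution with their sum. The fit was also run on simulated counts with planted changes larger than those of the members. That run does not show whether changes as small as theirs would be found. Alternatives used limma 3.58.1 and DESeq2 1.42.0.

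The members and lists were chosen with earlier results of these data known. Genes were named by rule: members past the threshold, the 4 smallest p per direction and subunit, the 3 highest and lowest per kilobase, fixed landmarks by role and those nearest the count threshold. From the lists of mitochondrial translation, transcription and encoded RNAs, the smallest p per direction and the most abundant gene were named, and other lists are given by sums and counts. Genes named beside these, for example Nrf1, Gabpa, Yy1 and Mrpl46, were picked after their values were seen. Pseudogene rows bearing members' names held 126 counts, against 236391 for the members.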

Additional observations from a re-analysis of the deposited data

How the results depend on the processing

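Under each alternative tried, 0 members passed, with the smallest Benjamini-Hochberg adjusted p of a member (edgeR, DESeq2 or limma) between 0.348 and 1. Over all genes 2 were called with TMM, relative log expression, plain totals, a 5 CPM minimum or limma-voom, but 15 without a low-count filter, 52 with DESeq2 and 82 with edgeR's exact test. With the replicate number as a block 64 were called, and Mrpl2 alone among members had an unadjusted p under 0.05. Same-numbered libraries deviated together only weakly (r = 0.15 over all genes). The labels tie the number to no animal or batch, so whether such libraries share more than a number is not known. With a library left out, where the lone sample of a group is assumed to vary like the other group, 1 to 221 genes were called. The 221 came without isolated replicate 1, where Mrpl2 and Mrps9 had unadjusted p under 0.05. The other 3 omissions gave 1 or 2. With a library left out, the small-subunit median ranged from -0.0061 (without isolated replicate 1) to 0.031 and was -0.0056 without group-housed replicate 2. The large-subunit median then ranged from -0.03 to 0.03. Plain totals moved the median of all genes from 0.0033 to 0.02 and gave a small-subunit median of 0.04. There Mrpl15 (0.0083), Mrpl41 (0.0041) and Mrps33 (0.0029) changed sign. Mrps21 changed sign with relative log expression (-0.0028), no filter (-0.0020), DESeq2 (-0.0032) and the block (-0.00025). Of 467 alternative values of named genes 434 kept direction and side of the threshold and 33 changed sign, 26 of them with a library left out. Over those omissions the log2 fold changes that crossed 0 were Mrpl10 (-0.091 to 0.016), Mrpl12 (-0.11 to 0.065), Mrpl13 (-0.060 to 0.013), Mrpl15 (-0.062 to 0.029), Mrpl19 (-0.013 to 0.21), Mrpl33 (-0.15 to 7.1e-05), Mrpl4 (-0.0035 to 0.16), Mrpl44 (-0.20 to 0.11), Mrps18b (-0.058 to 0.13), Mrps18c (-0.066 to 0.24), Mrps2 (-0.0021 to 0.10), Mrps21 (-0.064 to 0.056), Mrps30 (-0.019 to 0.068), Mrps33 (-0.079 to 0.035), Mrps34 (-0.058 to 0.12), Mrps35 (-0.031 to 0.11), Mrps36 (-0.12 to 0.020), Mrps5 (-0.0061 to 0.14) and Mrps7 (-0.074 to 0.089). The cause was not tested. Depth limits Mrps18c most, and 2 libraries per group limit all intervals.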
